A study of Mus musculus with 10 samples.

Results

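The polymeric immunoglobulin receptor gene Pigr and 4 genes that mark B cells, Cd79a, Cd79b, Ms4a1 and Pou2af1, were followed in the jejunum of newborn mice that overexpress interleukin-23 (IL-23) in the skin. They were picked by symbol, and all 5 were found among the 24062 gene symbols counted in each of the 10 libraries. The 5 WT libraries came from wild-type mice and the 5 KSR23 libraries from mice carrying a cre recombinase under the keratin 14 promoter together with a cassette for both IL-23 subunits, p19 and p40, placed in ROSA26 behind a floxed STOP. Both groups were C57BL/6 and were sampled at postnatal day 5, and the study describes the controls as littermates. The keratin 14 promoter drives the cre in keratinocytes of stratified epithelia, so the transgene was not directed to the jejunum itself. Whole jejunum was homogenised, so a level is an average over all its cells, and fewer cells of a type cannot be told apart from less RNA per cell.

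The product of Pigr sits on the basolateral face of the intestinal epithelium, where it binds polymeric IgA made by plasma cells, carries it across the cell and releases it into the lumen with a cleaved piece of the receptor, the secretory component. Cd79a and Cd79b encode the paired signalling chains of the B cell receptor, Ms4a1 encodes the surface protein CD20, which is lost when B cells become plasma cells, and Pou2af1 encodes OCA-B, a coactivator that works with octamer-binding factors at immunoglobulin promoters. In suckling mice most intestinal IgA comes from milk, and the gut's own IgA plasma cells appear later.

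Pigr lies on chromosome 1 of the mm10 build at 130826684 to 130852249 on the forward strand, with 13 blocks of exons (GENCODE M21). Its upstream sequence is shown because Pigr was the member that changed. The 250 bases before its start, chr1:130826434-130826683 on the forward strand (RefSeq, build GRCm38.p6), hold 1 match to the E-box CACGTG, printed in capitals, the motif bound by upstream stimulatory factors.
Pigr promoter: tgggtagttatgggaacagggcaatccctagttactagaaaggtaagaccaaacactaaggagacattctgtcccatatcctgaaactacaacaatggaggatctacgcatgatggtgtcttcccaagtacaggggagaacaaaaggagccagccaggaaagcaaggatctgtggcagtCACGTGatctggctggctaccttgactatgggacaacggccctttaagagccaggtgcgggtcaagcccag
CACGTG was present in 7.15% of 32851 promoter windows of 300 bases, which run from 250 bases before to 50 after a start. The windows of Pigr, Cd79a and Pou2af1 were matched by symbol, and on either strand none of the 3 held the octamer ATGCAAAT, present in 1.74% of windows. The Pigr window also held, in the 50 bases after the start, 1 match each to AANNGAAA, the core bound by interferon regulatory factors (23.9% of windows), and to the palindrome TTCNNNGAA (8.30% of windows). The octamer's 7-base core TGCAAAT was found in the window of Pou2af1 and in 4.02% of all windows.

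Cd79a lies on chromosome 7 (24897381 to 24902197, forward strand), Cd79b on chromosome 11 (106311341 to 106314762, reverse strand), Ms4a1 on chromosome 19 (11249675 to 11266241, reverse strand) and Pou2af1 on chromosome 9 (51213708 to 51240080, forward strand). Of the 75-base stretches of each gene's exons, 4.48% in Cd79a and 0.458% in Pigr also occurred in the exons of another annotated gene, and none did in Cd79b, Ms4a1 or Pou2af1.

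The libraries held 25477722 to 32030950 counts in WT and 31195111 to 60948534 in KSR23. On these plain totals 3 counts, taken as the floor, equalled 0.0492 to 0.118 CPM (counts scaled to a library of 1000000). All other CPM carry edgeR's TMM scaling of the totals, under which 3 counts can fall outside that range (Cd79a in KSR23 replicate 3, 0.119 CPM). Replicates 4 and 5 of each group held their group's highest or lowest value for only 8.53% to 18.4% of 9737 genes, against 45.7% to 75.6% for replicates 1 to 3. Whether they are independent of replicates 1 to 3 was not tested, and if they were not, n would be 3 rather than 5 a group, so replicates 1 to 3 were also fitted alone. Y-linked transcripts were abundant in all 5 WT libraries (492 to 6347 counts) and in KSR23 replicates 1 and 4 (9035 and 4330), but reached only 1 to 9 counts in KSR23 replicates 2, 3 and 5. The groups thus differed in how many libraries carried Y-linked transcripts, and a fit was made that adds the Y-linked share as a covariate. For the members both fits are given beside the result where they change a call. Of the 37 genes of other lists called below, 16 were also called with the covariate (Fcer2a, Prdm1, Syk, Ccl19, Ccl20, Ccl25, Ccr6, Tnfsf13b, Il4ra, Fcgrt, Fcer1g, Cd68, Cd14, Il22, Ctrb1 and Sycn). In the likelihood ratio fit of replicates 1 to 3, only 6 were called (Ccl20, Il4ra, Il22, Ctrb1, Sycn and Cel). The quasi-likelihood fit of those libraries called fewer. It did not call Il4ra, and it called only 1 of the pancreas genes.

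Of the 5 members, Pigr alone was called between the groups by edgeR's likelihood ratio test, against a background of 18.5% of 17632 genes tested (9.73% called higher and 8.76% called lower). It was also the one member called by the quasi-likelihood test, which called 15.4% of genes, and the one whose groups did not overlap, as was so for 14.4% of genes. Neither edgeR test nor DESeq2, which called 3644 of the 17632 genes, called any of the 4 B cell genes. At an unadjusted p under 0.05, the likelihood ratio test picked out 1 of these 4 and DESeq2 1, Pou2af1 in both, and the quasi-likelihood test 0. The share of all genes at that unadjusted threshold was not taken, so counts at it, here and below, have no background. The median log2 fold change of the 5 members was 0.94, which is the value of the uncalled Cd79a, beside 0.03 over all genes tested. Regardless of direction, the median size of the change over all genes was 0.56.

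Pigr rose in the KSR23 jejunum. The 5 WT libraries held 326, 224, 177, 278 and 294 CPM in order of replicate number, from 4814 to 10541 counts. The 5 KSR23 libraries held 1055, 957, 2733, 1246 and 2186 CPM, from 29682 to 77443 counts. Every KSR23 library was above every WT library, and replicates 3 and 5 were the highest. The mean went from 260 ± 59.4 to 1635 ± 784 CPM (SD, n = 5), a fitted 6.30-fold increase with a 95% interval of 3.96 to 10.03. On the log2 scale the change was 2.66 (SE 0.34), and the adjusted p was 2.98e-11 by edgeR's likelihood ratio test, or 0.000355 when the quasi-likelihood test was used.

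**Figure D1:**
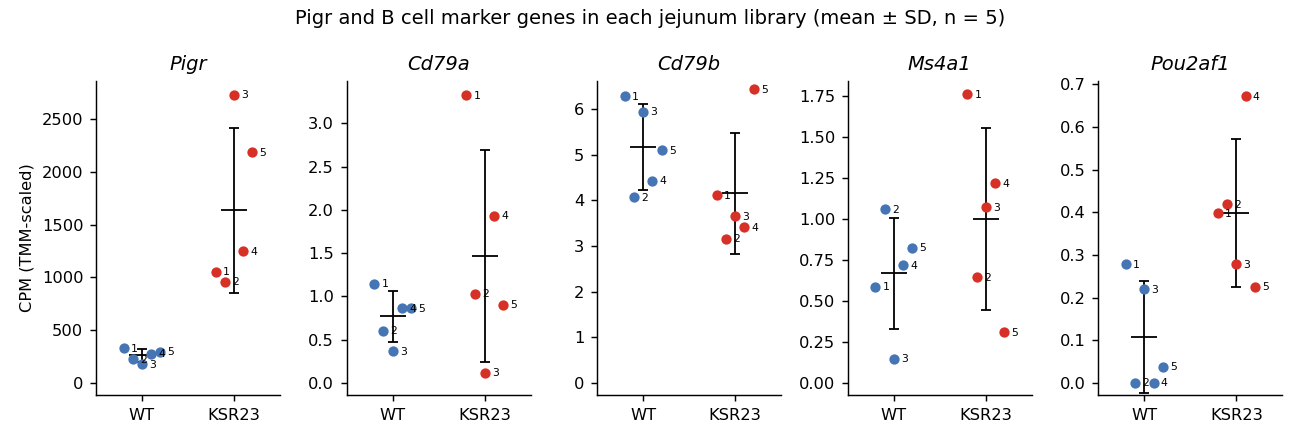
CPM of Pigr and the 4 B cell genes in each library, WT in blue and KSR23 in red, with replicate numbers beside the points and bars for the mean ± SD (n = 5 a group). Pigr spans 177 to 326 CPM in WT and 957 to 2733 CPM in KSR23, and the groups overlap for the other 4 genes.

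Ranked by CPM within a library, Pigr stood between places 455 and 943 in WT and between places 38 and 119 in KSR23. It took 0.0157% to 0.0344% of the counts in WT and 0.0951% to 0.218% in KSR23. Among all genes tested, 2.67% had a larger log2 fold change. Replicates 1 to 3 alone, with which 3.36% of genes were called, gave a difference of 2.74 and an adjusted p of 0.000712 by edgeR's likelihood ratio test. The quasi-likelihood test of the same 6 libraries gave 0.0791, and Pigr was no longer called. With the Y-linked share as a covariate it was 2.58 (adjusted p = 0.000126, edgeR).

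Because Pigr is an epithelial transcript, its level was also set against the mean log2 CPM of 7 epithelial markers (Epcam, Cdh1, Krt8, Krt18, Krt19, Vil1 and Cldn7). The marker score was 8.77 ± 0.50 in WT and 9.17 ± 0.47 in KSR23 (n = 5 a group, exact permutation p = 0.238, two-sided). Of the 7 markers, Cdh1, which encodes E-cadherin, was called higher (log2 fold change 1.11, SE 0.38, adjusted p = 0.0260, edgeR's likelihood ratio test) and the quasi-likelihood test called 0. Fits that each left out 1 library called 0 to 3 of the markers (3 higher without KSR23 replicate 1), and Cdh1 was lost in 5 of the 10. Pigr minus this score was 0.29, −1.34, −1.84, −0.71 and −0.30 on the log2 scale for the WT libraries in order. For the KSR23 libraries it was 0.68, 0.38, 3.05, 0.85 and 1.96. The lowest KSR23 value was above the highest WT value. The difference of the means was 2.16, with an exact permutation p of 0.00794 (two-sided, n = 5 a group), the smallest that the design allows. With replicates 1 to 3 alone the difference was 2.33, and its exact p of 0.1 is the smallest that 3 libraries against 3 can give. Within each group the highest score went with the lowest Pigr, in WT replicate 3 (9.31, Pigr 7.47) and KSR23 replicate 2 (9.52, Pigr 9.90). The lowest score went with the highest Pigr, in WT replicate 1 (8.06, Pigr 8.35) and KSR23 replicate 3 (8.37, Pigr 11.42). The subtraction is therefore a description and cannot be taken as an adjustment for the amount of epithelium.

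**Figure D2:**
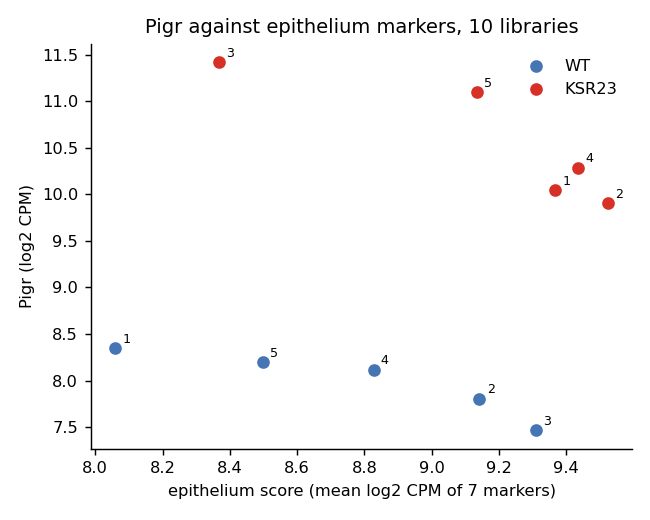
Pigr (log2 CPM, vertical axis) against the mean log2 CPM of the 7 epithelial markers (horizontal axis), 1 point a library with its replicate number. The 5 KSR23 libraries lie above the 5 WT libraries over overlapping ranges of the marker score (8.77 ± 0.50 in WT and 9.17 ± 0.47 in KSR23, SD).

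Cd79a, the first of the B cell receptor's signalling chains, was low throughout. It had 37, 17, 10, 30 and 23 reads counted in the WT libraries, against 234, 32, 3, 109 and 32 in the KSR23 libraries. As CPM these were 1.15, 0.601, 0.367, 0.864 and 0.864 in WT, and 3.33, 1.03, 0.119, 1.93 and 0.903 in KSR23. KSR23 replicates 1 and 4 exceeded all WT libraries, replicate 3 was below all of them, and the other two lay within the WT range. The log2 fold change was 0.94 (SE 0.64) with a 95% interval of −0.32 to 2.19, and it was not called (adjusted p = 0.338, edgeR's likelihood ratio test). Leaving out 1 library moved it from 0.45 without KSR23 replicate 1 (adjusted p = 0.666) to 1.23 without KSR23 replicate 3 (adjusted p = 0.0575). With the Y-linked share as a covariate it was 1.92 and was called (adjusted p = 0.0176).

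Cd79b, the other signalling chain, held 6.28, 4.07, 5.94, 4.44 and 5.11 CPM in WT and 4.11, 3.16, 3.66, 3.42 and 6.44 CPM in KSR23. KSR23 replicates 2, 3 and 4 were below all WT libraries, but replicate 5 was above them all. The mean was 5.17 ± 0.949 CPM in WT and 4.16 ± 1.32 CPM in KSR23 (SD, n = 5). The log2 fold change was −0.31 (SE 0.31, 95% interval −0.93 to 0.30, adjusted p = 0.542, edgeR). The 2 chains are needed together at the B cell surface, but the ratio of Cd79b to Cd79a counts ran from 5.13 to 16.2 in WT and from 1.24 to 30.7 in KSR23. Their log2 CPM, centred on each group, correlated at r = 0.03 over the 10 libraries, a description over points that include counts as low as 3.

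Reads of Ms4a1 numbered 19, 30, 4, 25 and 22 in the WT libraries, against 124, 20, 27, 69 and 11 in the KSR23 libraries. KSR23 replicates 1, 3 and 4 were above all WT libraries in CPM and the other two lay within the WT range. The mean was 0.668 ± 0.339 CPM in WT and 1.003 ± 0.557 CPM in KSR23 (SD, n = 5). The fitted log2 difference was 0.59 (SE 0.56, 95% interval −0.50 to 1.69, adjusted p = 0.514, edgeR). It was called with the Y-linked share as a covariate (1.73, adjusted p = 0.0430).

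Reads of Pou2af1 numbered 9, 0, 6, 0 and 1 in the WT libraries, against 28, 13, 7, 38 and 8 in the KSR23 libraries. KSR23 replicates 1, 2 and 4 were above every WT library in CPM, while replicates 3 and 5 lay within the WT range. The mean was 0.107 ± 0.132 CPM in WT, close to the floor, and 0.399 ± 0.173 CPM in KSR23 (SD, n = 5). The log2 fold change of 1.87 (SE 0.84, 95% interval 0.23 to 3.52) had an unadjusted p of 0.0247 and was not called after adjustment (adjusted p = 0.103, edgeR). This turned on WT replicate 1, without which the change was 2.63 and was called (adjusted p = 0.0253). With replicates 1 to 3 alone it was 1.15 (adjusted p = 0.724).

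Summed over the 4 B cell genes, the WT libraries held 5.73 to 8.30 CPM (median 6.68) and the KSR23 libraries 5.13 to 9.60 CPM (median 7.24), and Cd79b made up most of the sum in most libraries. Per kilobase of exon, the order in WT was Pigr (64.5 ± 14.8 CPM), Cd79b (3.61 ± 0.663), Cd79a (0.527 ± 0.203), Ms4a1 (0.108 ± 0.0548) and Pou2af1 (0.0421 ± 0.0519). The order was the same in KSR23, from 406 ± 195 CPM per kilobase for Pigr to 0.156 ± 0.0680 for Pou2af1. Ms4a1 and Pou2af1 overlapped in both groups and so had no order beyond their spread. In KSR23, Cd79a (0.0818 to 2.28 CPM per kilobase) also overlapped with Cd79b (2.21 to 4.50) and with Ms4a1 (0.0502 to 0.285), so that the order of the 4 B cell genes there held for the means only.

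The genes most like a member were sought among 12889 genes by the correlation of log2 CPM, centred on each group, over the 10 libraries. For Pigr these were Isx, an intestinal homeobox factor (r = 0.997), Flad1, an enzyme of FAD synthesis (0.994), and Grb7, a signalling adaptor (0.993). For Cd79a they were Nipal4 (0.966) and the kinase genes Camkk1 (0.964) and Limk2 (0.946). For Cd79b they were Gas1 (0.939), the kinetochore gene Casc5 (0.917) and Klhdc10 (0.886). The search took in only genes with a mean of at least 1 CPM, which leaves out many B lineage genes, and the libraries share depth and amplification, so the values are descriptions only. Ms4a1 and Pou2af1 were below that level too.

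Of 18 other B lineage genes listed, 17 were tested, 2 were called higher, 1 was called lower and 14 were not called, a share near the 18.5% called over all genes, with a median log2 fold change of 0.26. Fcer2a, the low-affinity IgE receptor of mature B cells, was counted 0, 3, 0, 0 and 0 times in the WT libraries, against 64, 1, 1, 99 and 4 times in the KSR23 libraries, a pooled ratio of 37.8 with a counting interval of 12.7 to 185 that leaves out the spread between libraries (adjusted p = 0.0143 by edgeR's likelihood ratio test, lost without KSR23 replicate 4). Blk, a B lineage Src kinase, went from 0.327 ± 0.198 to 1.24 ± 0.642 CPM without overlap (adjusted p = 0.00348, but 0.0617 with the covariate and 0.135 with replicates 1 to 3 alone). Cd72, an inhibitory coreceptor, fell from 7.67 ± 0.826 to 4.10 ± 1.57 CPM without overlap (log2 fold change −0.91, SE 0.33, adjusted p = 0.0349), and its call was lost in 7 of 10 fits that each left out 1 library. Of its exonic stretches, 34.7% also occur in another annotated gene. Pax5, which defines the lineage and is named after its values were seen, had 0 counts in all 10 libraries. As for Cd79a, KSR23 replicates 1 and 4, the KSR23 libraries with Y-linked transcripts, held the most Fcer2a. They also held the most Ms4a1 and Ccl19 and were the deepest libraries (60948534 and 51473778 counts). The covariate fit cannot tell sex apart from depth or anything else that these libraries shared, and the part of sex was not tested.

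**Figure D3:**
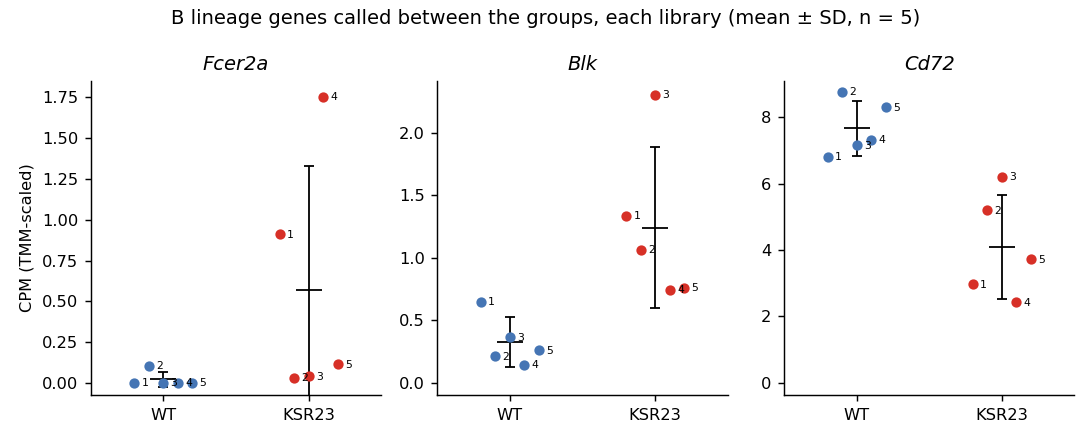
CPM of 3 other B lineage genes called between the groups, each library as a point with its replicate number, WT in blue and KSR23 in red, with bars for the mean ± SD (n = 5 a group). KSR23 replicates 1 and 4 carry most of the Fcer2a, whereas Blk (1.24 ± 0.642 against 0.327 ± 0.198 CPM in WT) and Cd72 do not overlap between the groups.

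Of 6 genes of B cell precursors, 3 were called lower with the likelihood ratio test, but 0 with either the quasi-likelihood test or DESeq2 (4 had an unadjusted p under 0.05). Vpreb2, part of the surrogate light chain, and the recombinase genes Rag1 and Rag2 summed to 9, 10 and 11 counts over the WT group, against 0 over the KSR23 group. Against a floor of 3 counts over the group, they were at least 4.47-fold, 4.97-fold and 5.47-fold lower. Single libraries carried these bounds: WT replicate 1 held 9 of the 11 Rag2 counts and 5 of the 9 Vpreb2 counts, and WT replicate 2 held 7 of the 10 Rag1 counts. Rag2 without WT replicate 1, and Rag1 without WT replicate 2, are at or under the floor and have no bound. The calls of Rag1, Rag2 and Vpreb2 were lost in 7, 5 and 1 of 10 fits that each left out 1 library. Of the exonic stretches of Vpreb2, 19.9% also occur in another annotated gene. The list's median was −3.36 as fitted and −2.24 with these genes at their bounds. Of 12 plasma cell and IgA genes, 9 were tested and 1 was called, Prdm1, a factor of plasma cells that epithelium of the suckling gut also makes (33.8 ± 4.06 to 73.7 ± 13.1 CPM, log2 fold change 1.13, SE 0.26, adjusted p = 0.000298, edgeR, but 0.321 with replicates 1 to 3 alone). The list's median was 0.25. The joining chain of polymeric IgA, counted as Igj and named after its values were seen, had 0 to 12 counts in WT and 0 to 31 in KSR23 (adjusted p = 0.426). Of 14 genes of B cell receptor signalling, 2 were called higher and 0 lower (median 0.40): the kinase gene Syk (log2 fold change 1.38, SE 0.39, adjusted p = 0.00492) and the phospholipase gene Plcg2 (1.55, SE 0.47, adjusted p = 0.00985, but 0.0829 with the covariate), neither of them particular to B cells. DESeq2 called 3 higher and 1 lower, the quasi-likelihood test called 3 higher, and the fit without WT replicate 2 called 4 higher. Of 5 octamer factors and coactivators, 0 were called by either edgeR test or DESeq2 (1 had an unadjusted p under 0.05), with a median of −0.37, and the most abundant was Pou2f1 (6.88 ± 3.10 CPM in WT and 8.77 ± 3.56 CPM in KSR23).

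Among 20 genes of B cell homing and survival, 19 were tested, 5 were called higher and 3 lower, with a median of −0.30. Ccl20, the ligand of the receptor Ccr6, rose from 5.74 ± 1.87 to 97.2 ± 51.4 CPM (log2 fold change 4.08, SE 0.44, adjusted p = 5.21e-14, edgeR) and was called with replicates 1 to 3 alone too. Ccr6 itself went from 0.372 ± 0.129 to 1.14 ± 0.397 CPM (adjusted p = 0.00318). Ccl28, an epithelial chemokine for IgA plasma cells, went from 10.7 ± 3.18 to 35.1 ± 20.5 CPM (adjusted p = 0.00153, but 0.312 with the covariate). Ccl19, a lymphoid tissue chemokine, was counted 5, 1, 0, 0 and 0 times in the WT libraries, against 154, 10, 3, 80 and 1 times in the KSR23 libraries (adjusted p = 0.00891), and 45.3% of its exonic stretches also occur in another annotated gene. Tnfsf13b, which encodes the B cell survival factor BAFF and was picked out after its values were seen, fell from 16.0 ± 4.30 to 5.85 ± 1.19 CPM (log2 fold change −1.45, SE 0.31, adjusted p = 9.23e-05, but 0.0622 with replicates 1 to 3 alone). The remaining called genes, likewise picked out after their values were seen, were the lymphoid homing receptor gene Ccr7 (1.42), the gut chemokine gene Ccl25 (−0.95) and the mucosal addressin gene Madcam1 (−0.82). The call of Ccr7 was lost in 6 of 10 fits that each left out 1 library.

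Of 9 other immunoglobulin receptor genes tested, 0 were called higher by either edgeR test and 2 were called lower, with a median of −0.80. DESeq2, scaling by library totals alone and the fit without KSR23 replicate 3 each called 5 lower. Over all genes these fits called 1754, 1858 and 1882 lower. The fit without KSR23 replicate 1 called 1 receptor gene higher and 2 lower. Fcgrt, the neonatal Fc receptor that carries milk IgG across the suckling gut, held 16444, 11373, 16669, 14130 and 15863 CPM in WT and 4993, 1263, 9047, 4024 and 5613 CPM in KSR23. All KSR23 libraries were below all WT libraries. The fitted log2 difference was −1.58 (SE 0.40, adjusted p = 0.00183, edgeR) and was not called with replicates 1 to 3 alone (adjusted p = 0.287). The other was Fcer1g, the signalling chain shared by several Fc receptors of myeloid cells (−1.04, SE 0.27, adjusted p = 0.00213).

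**Figure D4:**
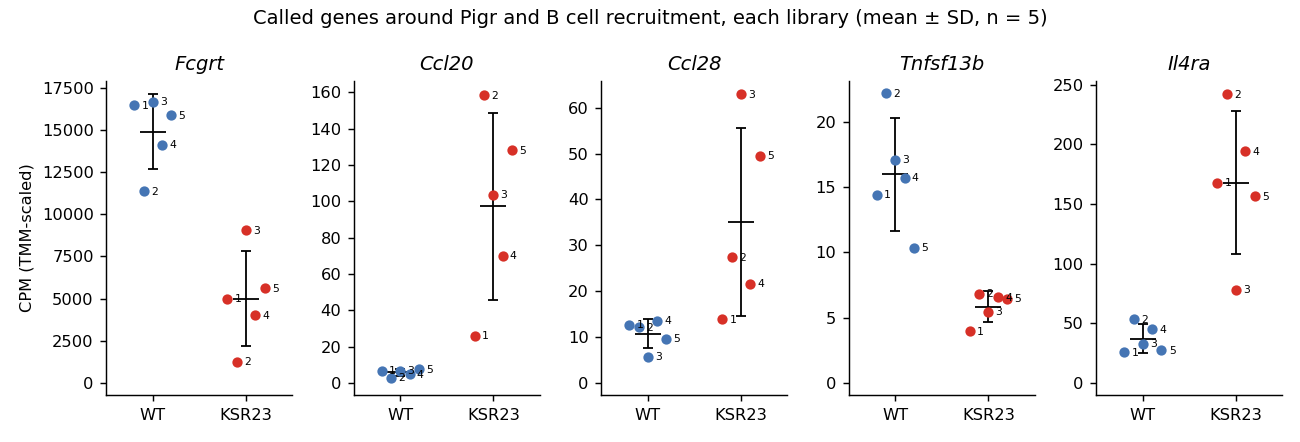
CPM of Fcgrt, Ccl20, Ccl28, Tnfsf13b and Il4ra in each library, WT in blue and KSR23 in red, with replicate numbers and bars for the mean ± SD (n = 5 a group). Fcgrt and Tnfsf13b are lower and the other 3 genes higher in every KSR23 library than in any WT library.

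Of 13 genes known to regulate Pigr, 4 were called higher and 1 lower, with a median of 0.82. The quasi-likelihood test called 3 higher and 0 lower, and fits that each left out 1 library called 3 to 7. The interleukin-4 receptor gene Il4ra went from 37.0 ± 12.0 to 168 ± 60.0 CPM (log2 fold change 2.18, SE 0.34, adjusted p = 6.02e-08, edgeR). Of these called genes, Il4ra alone kept its call in the likelihood ratio fit of replicates 1 to 3. The quasi-likelihood fit of those replicates called 0 of the 13. The interleukin-22 receptor gene Il22ra1 (1.39, SE 0.29), the interferon-gamma receptor gene Ifngr1 (1.17, SE 0.35) and the adaptor gene Myd88 (0.95, SE 0.34) were called higher with adjusted p-values of 6.84e-05, 0.00891 and 0.0364. With the covariate these were 0.0547, 0.272 and 0.279, and the call of Myd88 was also lost in 6 of 10 fits that each left out 1 library. The gene called lower, picked out after its values were seen, was Usf2 (−0.86, adjusted p at the 0.05 threshold), an upstream stimulatory factor, whose call was lost in 9 of those 10 fits. Of 10 genes of the route that carries Pigr through the cell, 1 was called, Mal2, which serves transcytosis to the apical face (12.4 ± 2.85 to 25.3 ± 7.01 CPM, adjusted p = 0.00858, but 0.0509 with the covariate), and the median was 0.00. The quasi-likelihood test, DESeq2, library totals alone and the fit without KSR23 replicate 3 each called 1 higher and 1 lower. The lower gene of the quasi-likelihood test was the Rab GTPase gene Rab3b (−0.68, adjusted p = 0.0466), named after its values were seen.

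**Figure D5:**
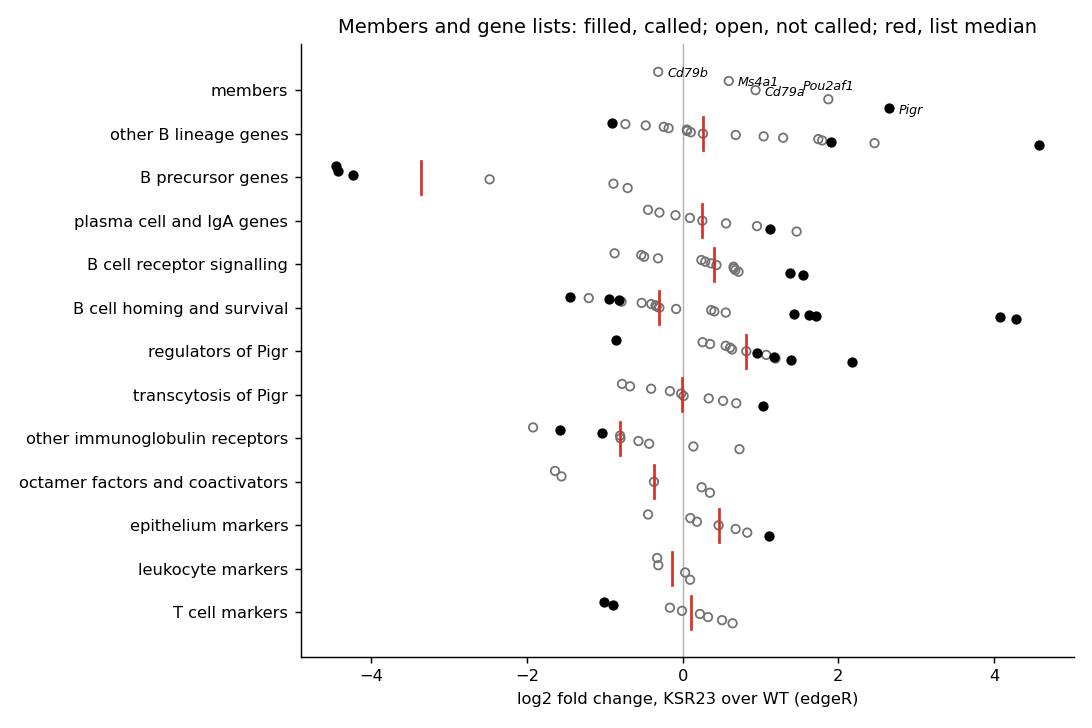
Log2 fold changes (KSR23 over WT, edgeR) of the 5 members and of the tested genes of 12 lists, 1 circle a gene, filled where called, with a red bar at each list's median. Pigr at 2.66 is the 1 filled circle among the members, and the 3 filled genes of the B cell precursor list are fitted values of genes with 0 counts in KSR23.

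Markers of other cells that the jejunum could hold were measured beside these results. Over 4 pan-leukocyte markers the summed level was 96.4 to 129 CPM in WT and 90.8 to 122.9 CPM in KSR23, and 0 of 4 were called by the likelihood ratio test, the quasi-likelihood test or DESeq2 (0 had an unadjusted p under 0.05). Laptm5, the most abundant of them, held 39.7 ± 6.68 CPM in WT and 42.5 ± 6.10 CPM in KSR23. Of 8 T cell markers, Cd3g and Cd8a were called lower (summed level 15.4 to 22.3 CPM in WT and 12.7 to 22.2 CPM in KSR23), but 0 were with the covariate or without KSR23 replicate 4, and the quasi-likelihood test called 1. Of 5 myeloid markers tested, Cd14 and Itgam were called higher and Cd68 lower (619 to 752 CPM in WT and 494 to 689 CPM in KSR23), though the quasi-likelihood test did not call Itgam, and 65.2% of its exonic stretches also occur in another annotated gene. Of 5 markers of type 3 lymphoid cells, Il22 was called higher, from 0 or 1 counts in each WT library to 137 to 329 in each KSR23 library (29.9% of its exonic stretches are shared with another annotated gene). The fit without KSR23 replicate 4 called 2 of the 5 higher, and the fit without KSR23 replicate 3 called 1 higher and 1 lower. None of 4 M cell markers was called by either edgeR test or DESeq2 (28.9 to 47.3 CPM in WT and 24.1 to 42.3 CPM in KSR23, 0 with an unadjusted p under 0.05), the most abundant being Ccl9. All 5 tested genes of the acinar pancreas, a tissue next to the gut, were called lower (Ctrb1, Sycn, Cela2a, Cel and, named after its values were seen, Cpa1). The quasi-likelihood test called 3, the covariate fit 2 and the fits without WT replicate 1, 4 or 5 called 3 each, and Cel and Cpa1 had at most 3 counts in WT replicates 2 and 3. The list's summed level was 73.5 to 103 CPM in WT and 0.238 to 0.932 CPM in KSR23, and Ctrb1 made up nearly all of it in WT (82.2 ± 7.73 CPM). Ctrb1 held 73.2 to 94.5 CPM in the WT libraries, with 80.0 and 73.2 CPM in replicates 2 and 3. The study reports Ctrb1 and Cpa1 as lower in KSR23 jejunum and describes digestive enzymes as made by the jejunum too. Whether these transcripts came from pancreas or from jejunum was not tested. The part of these cell types in the differences of Pigr and the B lineage genes was not tested.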

How the data were processed

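RNA of jejunum was primed with oligo-dT, amplified and sequenced as single-end reads. Per the study's methods and the submitters' notes, the authors mapped reads to mm10 with TopHat (version 2.1.0) and deposited raw counts per protein-coding gene from htseq-count (0.6.1p1). A strand setting is not given in the sources used here. Without molecular identifiers, floors and counting intervals cover counting error only.

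The deposited counts were fitted in edgeR 4.0.16 (R 4.3.3) with TMM scaling, keeping genes with at least 5 counts in 1 library or more. KSR23 was compared with WT by the negative binomial likelihood ratio test with Benjamini-Hochberg adjustment, called under 0.05. CPM are TMM-scaled, log2 CPM used a prior count of 2, and 95% intervals come from the fitted SE. The quasi-likelihood test and DESeq2 1.42.0 were alternatives. The fits were tested on simulated data.

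Groups came from the sample titles. The study calls the libraries biological replicates, the labels do not tie each to an animal, and p-values measure the spread between these libraries. The members and lists were chosen with earlier results of these data known. From each list, up to 4 called genes with the largest changes were named, or the most abundant gene where none was called, and other names are marked as chosen after their values were seen. Igha, Ighm and Adgre1, which the lists name, were not analysed here. Some listed genes are not reported here and were left out of the list counts.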

Additional observations from a re-analysis of the deposited data

How the results depend on the processing

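No alternative turned the direction of a member. Leaving out each library in turn gave log2 fold changes of 2.39 to 2.85 for Pigr, 0.45 to 1.23 for Cd79a, −0.52 to −0.18 for Cd79b, 0.34 to 0.87 for Ms4a1 and 1.60 to 2.63 for Pou2af1 (called without WT replicate 1 alone), 1.75 to 2.43 for Pigr minus the epithelial score, and 2370 to 3802 called genes. Replicates 1 to 3 alone gave 579 called genes, or 140 under the quasi-likelihood test (Pigr 2.74, adjusted p = 0.0791), and 2.33 for Pigr minus the score (exact p = 0.1). The covariate for Y-linked counts gave 1797 called genes, and Cd79a (1.92) and Ms4a1 (1.73) were then called. The replicates-1-to-3 quasi-likelihood fit and this covariate were chosen after seeing the data. Scaling by library totals alone called 1414 genes higher and 1858 lower, against 1716 and 1545 with TMM. Same-numbered libraries did not deviate together (r from −0.55 to 0.25, with 1 of 10 libraries closest to its own number). The labels give no pairing, and these values cannot exclude a shared litter or batch. With the replicate block 2202 genes were called, and Pigr minus the score was 2.16 with an exact p of 0.0625, the smallest that 32 sign flips allow. Requiring 5 counts in every library drops Cd79a, Ms4a1 and Pou2af1. Of the 37 listed genes called, 21 were called whichever library was left out, 26 by the quasi-likelihood test and 16 with the covariate. The likelihood ratio fit of replicates 1 to 3 called 6 of them, and the quasi-likelihood fit of those replicates called fewer. With 0 to 38 counts a library, Pou2af1 is limited by depth, as are Cd79a and Ms4a1 in libraries with 3 or 4 counts.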

Other observations

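Genes within 100 kb of a member were compared too. Near Pigr, 3 of 6 were tested and AA986860, 82.1 kb away, was called higher (log2 fold change 1.06, SE 0.27, adjusted p = 0.00166, edgeR's likelihood ratio test). Fcamr, the Fc receptor gene beside Pigr at 11.9 kb, held 0 to 6 counts in WT and 1 to 9 in KSR23 and is named after its values were seen. Near Cd79b, 8 of 10 were tested, Ftsj3, a ribosome biogenesis gene, was called higher (1.18, adjusted p = 0.00336) and Icam2, an adhesion gene of endothelium, lower (−0.99, adjusted p = 0.0199). Near Ms4a1, 2 of 5 were tested and Ms4a7, a family member of macrophages, was called lower (−1.41, SE 0.30, adjusted p = 0.000120). Of 4 tested near Cd79a and 1 near Pou2af1, 0 were called by the likelihood ratio test. With replicates 1 to 3 alone, none of AA986860, Ftsj3, Icam2 and Ms4a7 was called by that test (adjusted p from 0.227 to 0.528).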
